A study of Mus musculus with 157 samples.

Results

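Heavy polysomes were compared with monosomes in LPS+ET+KU cells, which are activated splenic B cells that took up the topoisomerase II poison etoposide while the kinase ATM was inhibited. The comparison used 40 of the 157 libraries of the series, chosen by treatment, gradient and fraction and not by any measured value. In each of 4 sucrose gradients, the 4 libraries of fractions 4 to 7 (monosomes) and the 6 libraries of fractions 11 to 16 (heavy polysomes) were scaled to CPM (counts of a gene per 1000000 counts of the library) and averaged, which gave 4 pairs of values a gene.

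All cells came from spleens of C57BL/6Babr mice and were cultured with LPS at 10 µg/ml. The LPS cells received no other agent in 48 h, and the LPS+ET cells also received 20 µM etoposide for 4 h. The LPS+ET+KU cells had 47 h of LPS and received 10 µM KU55933, the ATM inhibitor, 1 h ahead of the same etoposide. No group received KU55933 without etoposide, so an effect of the inhibitor on undamaged cells cannot be told apart from its effect on damaged ones. Elongating ribosomes were held on the mRNA with cycloheximide, and the RNA of each fraction was brought to the same concentration before the libraries were made, so that the depth of a library does not show how much mRNA its fraction held. The study calls the gradients biological replicates. Nothing states whether they came from separate animals or cultures, so the p-values measure the spread between these gradients, which may be technical. The gradients carry the tags of their sequencing pools, LUL15 to LUL18.

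The 16 monosome libraries held 321208 to 2158545 counts and the 24 heavy libraries 60143 to 4170688, with 1 library under 100000 counts, fraction 15 of gradient LUL15. Each count is a sequenced 3′ end, a single tag per mRNA whatever its length, so CPM was not divided by length. B cell markers (Cd79a, Ms4a1, Ighm and others) summed to 4382 to 5959 CPM in the monosomes and 15283 to 43739 CPM in the heavy polysomes. T cell markers summed to at most 1.82 CPM, erythroid markers to at most 0.797 CPM and myeloid markers to between 14.6 and 155 CPM in any class of any gradient. The deposited genes held 4 of 5 listed T cell markers, 1 of 4 erythroid markers and 0 of 2 NK cell markers. The erythroid sum thus rests on 1 gene, and NK cells could not be assessed. The part of other cells in a value was not tested, and in bulk cultures fewer cells of a type and less RNA per cell cannot be told apart.

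In a sucrose gradient an mRNA sinks further the more ribosomes it carries. An mRNA with a single ribosome lies with the monosomes, together with untranslated RNAs in particles of like size, and an mRNA with many ribosomes lies in the heavy fractions. A longer coding sequence has room for more ribosomes, and the rate of initiation sets how densely it is filled. A family called TOP mRNAs, which codes for the ribosomal proteins and several translation factors, starts with a C followed by a run of pyrimidines, and its translation is known to follow the activity of the growth kinase mTOR. ATM is the kinase that answers DNA double-strand breaks and activates p53.

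The starts of a few genes are shown because this tract is the sequence feature that defines the TOP family, which held 6 of the 8 coding genes furthest towards the monosomes. Each line gives 15 bases before and 15 bases from the annotated start, on the transcribed strand, from RefSeq (GRCm38.p6). Capitals mark the first C followed by 5 or more pyrimidines, searched on that strand only.
Rps15a, chr7:118116133-118116162, minus strand: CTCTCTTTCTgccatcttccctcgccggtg
Rpl34, chr3:130730323-130730352, minus strand: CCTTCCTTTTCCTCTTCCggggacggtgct
Rpl39, chrX:37085208-37085237, minus strand: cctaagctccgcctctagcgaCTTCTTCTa
Rpl37, chr15:5116598-5116627, plus strand: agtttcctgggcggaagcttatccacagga
Snrnp200, chr2:127208371-127208400, plus strand: ccgtttCTTTTCTCCgtcccttacgttcgt
Bod1l, chr5:41844301-41844330, minus strand: ttCCTCCTTTCCCTCagttccttttcactt
Cad, chr5:31054765-31054794, plus strand: tgcttgcgccgtcgcagtcgtgcttcagct
Prrc2c, chr1:162740542-162740571, minus strand: acgtacgcaacgtcatgacgtagcacgtag
The first 4 genes were among the coding genes furthest towards the monosomes and the last 4 among those furthest towards the heavy polysomes. The tract was present in the windows of 3 of those first 4 and of 2 of the last 4. Of other genes furthest towards the heavy polysomes, Eif4g1 and Myh9 also held it and Flna did not. The tract was also absent from the windows of the TOP mRNAs Eef2 and Tpt1. It was in the windows of 27 of the 44 ribosomal protein genes that had one (61.4%), against 1472 of the 5454 tested genes with a window and 22.5% of all 32851 windows. Coding genes called higher in monosomes held it in 35.1% of 479 and those called higher in heavy polysomes in 26.1% of 1730. The match is a description of the letters at the annotated start, which need not be the start used in these cells.

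Of 19600 genes, 7379 reached a mean of 10 CPM over both classes and were tested. The level differed between heavy polysomes and monosomes for 5208 of them, 70.6%, at an adjusted p under 0.01. Of these, 4355 (59.0%) were higher in heavy polysomes and 853 (11.6%) higher in monosomes. The difference, heavy minus monosome on the log2(CPM + 1) scale, ran from -4.02 to 4.28, with a median of 0.88, quartiles at 0.13 and 1.52 and a median standard error of 0.19. In the 4 gradients the median gene stood at 0.91, 0.68, 1.01 and 0.93, and 5143 of the called genes had the same sign in 4 of 4 gradients. With no overlap between the 4 values of each class, 3489 genes (47.3%) were higher in heavy polysomes and 632 (8.56%) higher in monosomes.

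The zero of this scale rests on the scaling. With TMM factors the median over the same genes moved by -0.61 and with edgeR on summed counts by -0.68, and the share of calls towards heavy polysomes went from 83.6% to 62.0% and 48.8%. Under these 3 scalings 2243 genes (30.4%) were called higher in heavy polysomes each time, and all 853 (11.6%) monosome calls were made each time. Below, "higher in heavy polysomes" and "higher in monosomes" are used of such genes only. A gene given as not called missed the threshold with limma on the CPM scale, and 630 such genes (8.54%) were called towards monosomes with both TMM factors and edgeR. Every one of the former had a difference of at least 1.01 and every one of the latter of at most -0.53. Differences are to be read against the median gene at 0.88. Counts of list members are to be read against the 30.4% and 11.6% of all genes. With the median gene as the zero in each gradient, 25.9% of genes were called above it and 28.3% below it.

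**Figure D1:**
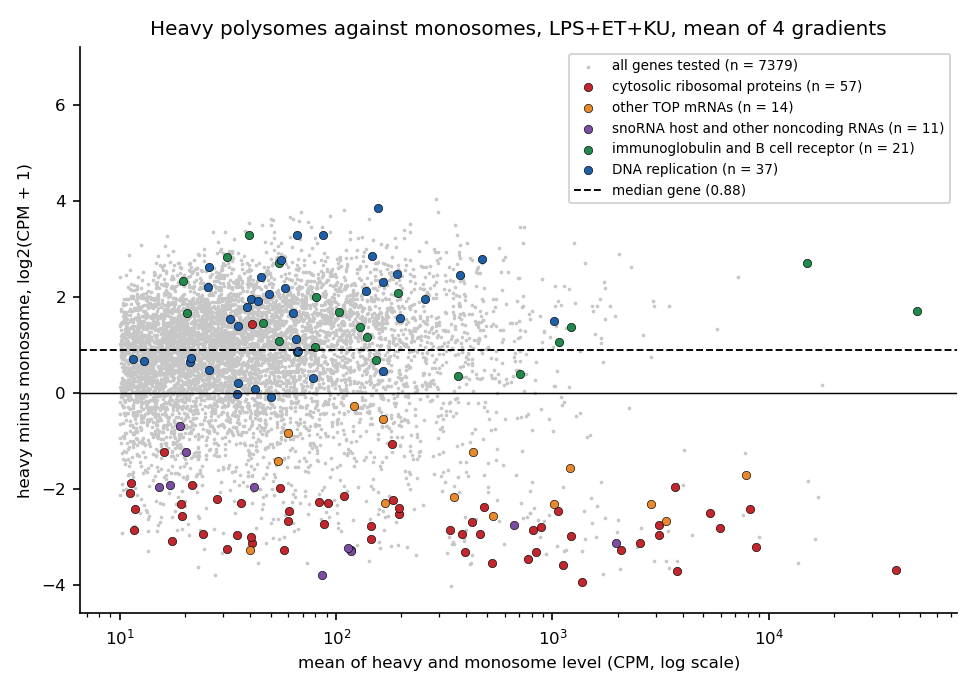
Each point is 1 of 7379 genes, with the mean of its heavy and monosome level in CPM on a log axis and its heavy minus monosome difference (log2 of CPM + 1, mean of 4 gradients) on the vertical axis. Of the coloured lists, ribosomal proteins (median -2.78), other TOP mRNAs and snoRNA hosts lie low and DNA replication genes (median 1.78) and immunoglobulin genes high, and the dashed line marks the median gene at 0.88.

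Ribosomal protein mRNAs, which code for the ribosome itself, made up 17.7% ± 1.03 (SD, n = 4) of monosome counts and 2.07% ± 0.458 of heavy counts. Pseudogenes, many of them near-identical copies of ribosomal protein genes among which reads cannot be assigned with certainty, made up 11.2% ± 0.572 and 2.40% ± 0.330. Mitochondrially encoded RNAs took 8.24% ± 5.28 of monosome and 1.70% ± 0.811 of heavy counts, and long noncoding RNAs 2.43% ± 0.391 and 0.636% ± 0.140. Immunoglobulin constant region genes went the other way, from 2.51% ± 1.18 to 10.3% ± 6.22. Each of these shares moved the same way in 4 of 4 gradients, for which the exact two-sided sign-flip test gives p = 0.125, the smallest that 4 pairs allow. The 20 genes with the most counts held 35.5% of the monosome counts and 20.4% of the heavy counts. Rps20 alone, a protein of the small subunit, took 7.22% ± 1.06 of monosome counts, and Igkc, the constant part of the kappa light chain, took 7.61% ± 4.96 of heavy counts.

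On the CPM scale, the coding genes furthest towards heavy polysomes code for large proteins. Cad, the multienzyme that starts pyrimidine synthesis, had 3172, 3015, 1573 and 2147 CPM in the heavy polysomes of LUL15 to LUL18 and 151, 71.0, 137 and 149 CPM in the monosomes, a difference of 4.28 ± 0.24 (SE, n = 4 gradients, adjusted p = 1.3e-08). Its counts end in the 3′ untranslated exon at chr5:31078478 (GRCm38). Its heavy values varied among gradients but all lay far above its monosome values. Snrnp200, a helicase of the spliceosome, had 667, 732, 383 and 403 CPM against 29.2, 33.3, 27.4 and 35.3 CPM (4.03 ± 0.18). Mcm4, a subunit of the replicative helicase, had 333, 388, 200.3 and 246 CPM against 24.3, 19.8, 15.4 and 16.9 CPM (3.84 ± 0.16). Both classes stood far apart in all gradients for these genes. The others of the leading 8 were Prrc2c (3.81 ± 0.19), the initiation scaffold Eif4g1 (3.77 ± 0.15), the actin crosslinker Flna (3.76 ± 0.16), the myosin heavy chain Myh9 (3.67 ± 0.24) and Bod1l (3.66 ± 0.18), none of which overlapped between the classes. With edgeR on summed counts the 8 stood lower, from 1.86 for Bod1l to 2.37 for Mcm4, with Cad at 1.99 and Snrnp200 at 1.91. These falls were larger than the shift of -0.68 in the median. The mean levels of Cad and Snrnp200 peaked in fraction 15, where the LUL15 library, weighted as the others, held under 100000 counts.

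The 8 coding genes furthest towards the monosomes were Rpl39, Rpl32, Rps20, Rps15a, Rpl37 and Rpl34, all ribosomal proteins, and the gene models Gm10275 and Gm10076. Rpl39, a protein of the large subunit counted at chrX:37082551, had 222, 175, 157 and 125 CPM in heavy polysomes and 2572, 2218, 3011 and 2526 CPM in monosomes, a difference of -3.94 ± 0.18 (adjusted p = 5.3e-09). Rpl32 had 744, 661, 415 and 392 CPM against 7008, 6739, 6981 and 7299 CPM (-3.72 ± 0.20). Rps20 had 7933, 5720.3, 5247 and 3963 CPM against 87622, 65539, 70993 and 64686 CPM (-3.69 ± 0.23). The gradients were closer to each other in the monosomes than in the heavy polysomes, and the classes did not overlap. Rps15a stood at -3.60 ± 0.17, Rpl37 at -3.56 ± 0.16, Rpl34 at -3.47 ± 0.19, Gm10275 at -3.65 ± 0.17 and Gm10076 at -3.51 ± 0.20.

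Of the 57 ribosomal protein genes tested of 83 listed, 56 were higher in monosomes, with a list median of -2.78 against 0.88 over all genes. The median was -2.46, -2.65, -2.76 and -3.04 in LUL15 to LUL18. The exception stood at 1.43 ± 0.18 and was not called under every scaling. This entry is named Rpl24 in the deposited table but carries the Ensembl identifier of Zbtb11, a zinc finger gene, and its counts lie in the last untranslated exon of Zbtb11 at chr16:56008910, so its value is not that of Rpl24. By fraction, 55 of the 57 genes (96.5%) had their highest mean level in fractions 4 to 7, against 12.0% of all genes tested. Rpl39 peaked in fraction 5 in all 4 gradients, at a mean of 4291 CPM, and was lowest in fraction 12 at 127 CPM.

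The other TOP mRNAs lay on the same side. Of 14 tested of 20 listed, 12 were higher in monosomes, and the list median was -1.95. Tpt1, a growth-linked protein also called TCTP, had 6.37, 8.80, 7.30 and 3.61 CPM in heavy polysomes and 47.5, 53.2, 111 and 79.9 CPM in monosomes (-3.27 ± 0.26). Eef2, the factor that moves the ribosome along the mRNA, had 4068, 3498, 4154 and 2652 CPM against 9932, 18066, 10436 and 9931 CPM (-1.72 ± 0.22, adjusted p = 1.1e-05). Both were higher in monosomes without overlap. Pabpc1, the poly(A)-binding protein, had 61.8, 44.4, 78.3 and 40.9 CPM against 213, 229, 391 and 288 CPM (-2.30 ± 0.17). Npm1, a nucleolar chaperone of ribosome assembly, stood at -1.57 ± 0.17. Eif4b, a helper of the initiation helicase, was not called, at -0.28 ± 0.15 (adjusted p = 0.109), and its direction turned to 0.38 with narrower class bounds (fractions 12 to 15 against 4 to 6). It was called towards monosomes with TMM factors (-0.84) and edgeR (-1.43). All 14 genes had their highest level in fractions 4 to 7.

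**Figure D2:**
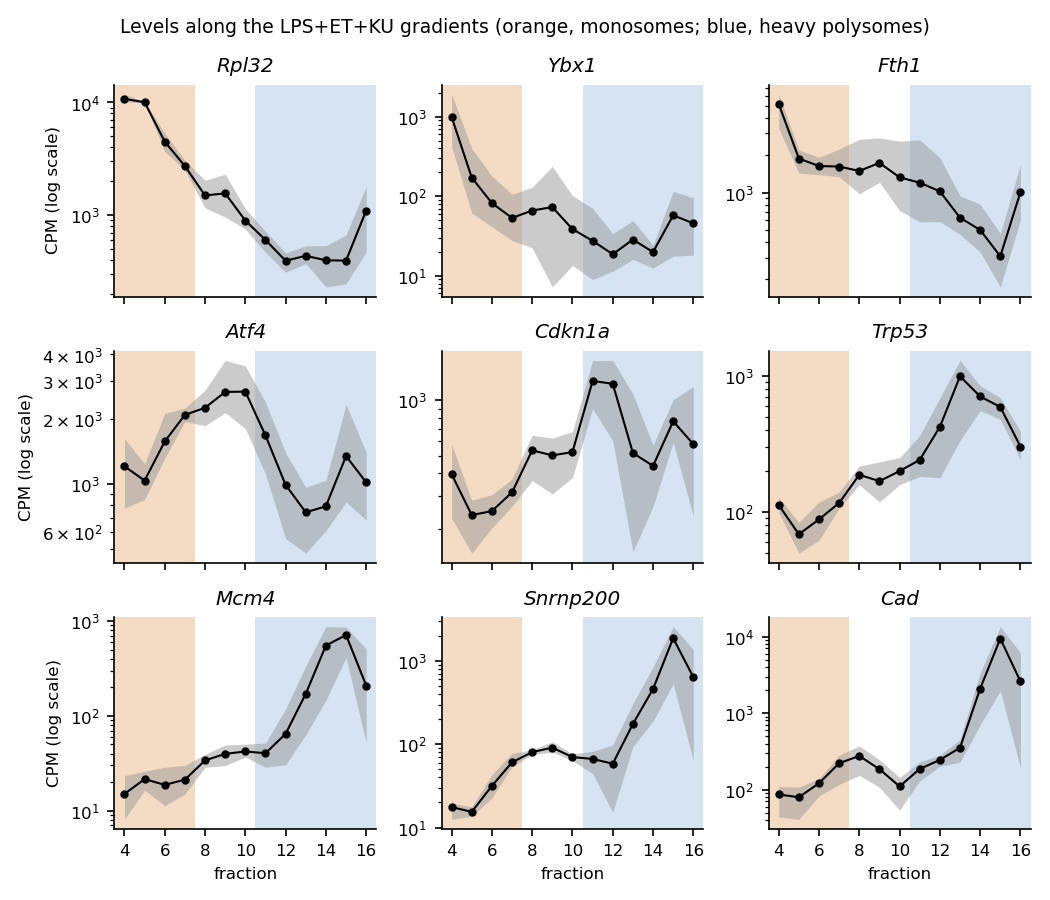
Mean level of each gene in CPM (log axis) along fractions 4 to 16 of the LPS+ET+KU gradients, with the lowest and highest of 4 gradients as a grey band. Rpl32 falls from 10763 CPM in fraction 4 to 393 CPM in fraction 12. Cad rises from 79.4 CPM in fraction 5 to 9404 CPM in fraction 15.

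The difference rose with coding length. Over the 6981 coding genes with a coding length in the annotation, Spearman's rho between length and difference was 0.418 across genes, and 0.351 to 0.462 within single gradients. These genes share the same libraries and are no independent replicates. The median difference was -0.30 for genes of up to 100 codons (156 genes), 0.64 for 201 to 300 codons, 0.94 for 401 to 600 codons and 2.03 for over 2000 codons (185 genes). The place of the highest level moved in the same order. The median gene of up to 200 codons peaked in fraction 10, that of 401 to 600 codons in fraction 13 and that of over 1500 codons in fraction 15. Of the shortest genes 1.28% peaked in fractions 14 to 16 and 86.5% in the light fractions 8 to 10, and of the longest genes 89.7% and 5.41%. Genes called higher in monosomes had a median of 264 codons and those called higher in heavy polysomes 540.0 codons, against 442 codons over all.

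Ribosomal protein mRNAs lay below other mRNAs of their own length. Those of up to 100 codons (7 genes) had a median of -3.26, and the other 149 coding genes of that length -0.27. From 101 to 150 codons the medians were -2.98 (24 genes) and 0.15 (340 genes), from 151 to 200 codons -2.33 (10 genes) and 0.44 (492 genes), and from 201 to 300 codons -2.51 (12 genes) and 0.65 (968 genes). Every one of these ribosomal protein genes was higher in monosomes. Between 300 and 600 codons (2668 genes), the median difference fell from 0.99 for genes with no ATG upstream of the coding sequence to 0.68 for genes with 5 or more, and went from 0.67 for the 667 genes with the shortest to 1.05 for the same number with the longest 3′ untranslated region. The GC content of the 5′ untranslated region showed no such order, with a rho of -0.00181 in that range of lengths.

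**Figure D3:**
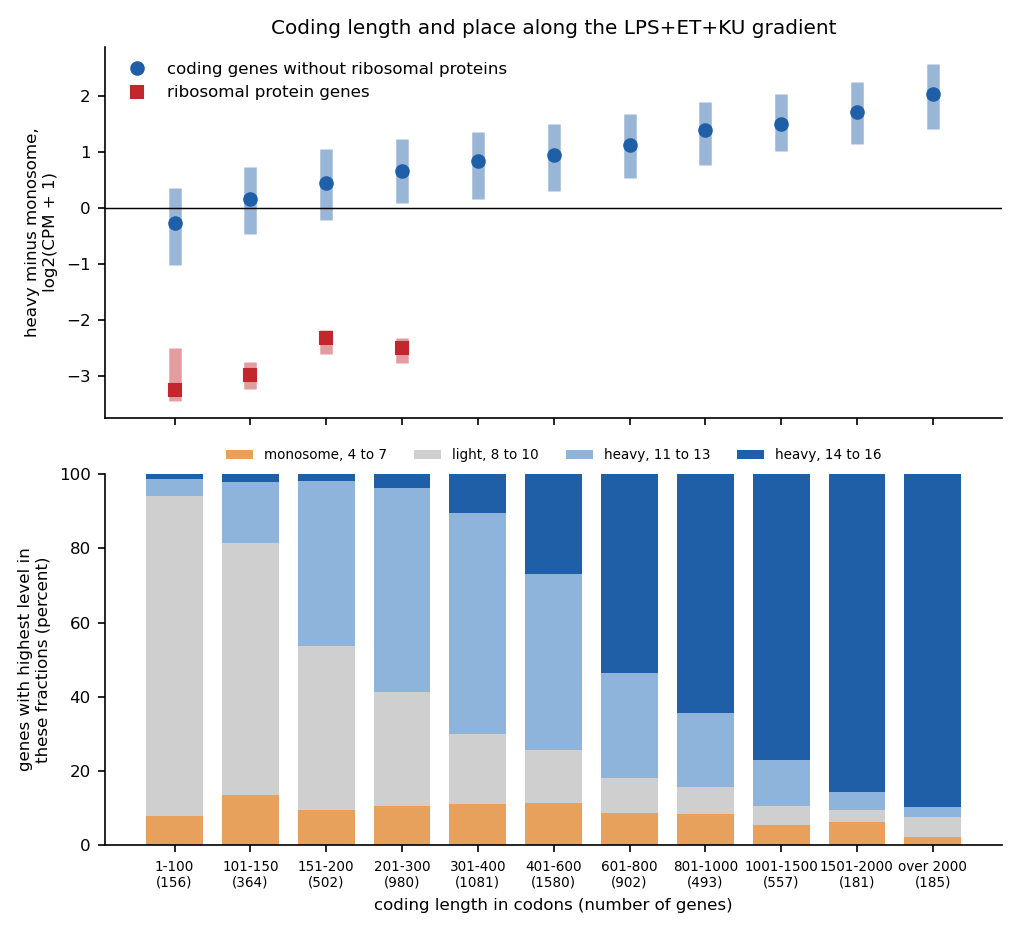
Upper panel, median and quartiles of the heavy minus monosome difference by coding length in codons, for ribosomal protein genes (red) and all other coding genes (blue). Lower panel, percent of the genes of each length with their highest level in the monosome, light, early heavy and late heavy fractions; peaks in fractions 14 to 16 go from 1.28% of the shortest to 89.7% of the longest genes.

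Among the 33 translation initiation factors tested outside the TOP list, 13 were higher in heavy polysomes and 4 higher in monosomes, with a list median of 0.99. Eif4g1 was the highest, with 663, 599.9, 423 and 523 CPM in heavy polysomes and 40.7, 40.6, 30.9 and 44.6 CPM in monosomes. Eif3k, a small subunit of eIF3, was the lowest of these at -1.86 ± 0.15, with 197, 137, 99.1 and 123 CPM against 577, 571, 381 and 459 CPM. Members of this group thus lay at both ends without overlap between the classes. The TOP list holds further initiation factors higher in monosomes, named after their values were seen, Eif3f (-2.57), Eif3h (-2.32), Eif3e (-1.43) and Eif3l (-0.85). Eif1, which guards start codon choice, was not called at -0.44 ± 0.16 (adjusted p = 0.0234) but was called towards monosomes with TMM factors (-1.12) and edgeR (-0.97). The aminoacyl-tRNA synthetases, which charge tRNAs, had a median of 1.70, with 13 of 22 higher in heavy polysomes and 1 higher in monosomes. Nars had 2829, 3654, 2372 and 2525 CPM against 779.8, 1153, 624 and 756 CPM (1.80 ± 0.16), Aars stood at 2.78 ± 0.18, and Qars was the one higher in monosomes at -0.86 ± 0.19. Of 35 ribosome biogenesis genes 16 were higher in heavy polysomes, led by the assembly factor Bms1 (2.98 ± 0.17), and 3 higher in monosomes, with a median of 1.50.

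The lists of secreted and membrane proteins had medians above that of all genes. Of 43 genes of endoplasmic reticulum chaperones and translocation, 22 were higher in heavy polysomes and 2 higher in monosomes, with a list median of 1.46. Hspa5, the chaperone BiP, had 1142, 1450.1, 1327 and 1257 CPM in heavy polysomes and 129, 82.9, 134 and 128 CPM in monosomes (3.46 ± 0.18). Calr, a lectin chaperone, had 1594, 1099, 1261 and 1281 CPM against 591, 334, 406 and 427 CPM (1.59 ± 0.15). Ssr4, a short subunit of the translocon-associated complex, was higher in monosomes at -1.44 ± 0.16. Immunoglobulin and B cell receptor genes had a median of 1.44, with 12 of 21 higher in heavy polysomes and 0 called higher in monosomes. Igkc had 41808, 26176, 109914 and 126653 CPM in heavy polysomes and 12335, 11724, 34956 and 26274 CPM in monosomes (1.71 ± 0.26, adjusted p = 4.7e-05). Heavy exceeded monosome in every gradient, but the ranges overlapped because LUL17 and LUL18 were high in both classes. Ighg2c, a class-switched heavy chain, stood at 3.28 ± 0.33, and Blnk, an adaptor of receptor signalling, was not called at 0.35 ± 0.19 and turned to -0.28 with TMM factors. Of 17 MHC class I and II genes 9 were higher in heavy polysomes and 1 higher in monosomes (median 1.23), from the peptide transporter Tap2 at 2.81 ± 0.15 to H2-Oa at -0.68 ± 0.18. H2-Eb1 was not called at 0.16 ± 0.22, turned to -0.51 with TMM factors and was called towards monosomes with edgeR at -0.48.

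On the CPM scale, genes of DNA repair, DNA replication and mitosis had, with glycolysis, the highest list medians. With edgeR these were 0.66, 1.01, 0.78 and 0.97, and the aminoacyl-tRNA synthetases (0.86) lay above repair and mitosis. The DNA damage kinases and repair genes had a median of 1.99, with 12 of 23 higher in heavy polysomes, 0 called higher in monosomes and a median coding length of 1014 codons. Top1, DNA topoisomerase I, had 133, 104, 117 and 139 CPM against 12.7, 11.8, 12.9 and 12.6 CPM (3.19 ± 0.16). Tdp1, which removes topoisomerase adducts, was not called at 0.19 ± 0.16, turned to -0.44 with TMM factors and was called towards monosomes with edgeR at -0.55. Of 37 DNA replication genes 23 were higher in heavy polysomes and 0 called higher in monosomes (median 1.78). Mcm7 had 1554, 2032, 1161 and 1225 CPM against 533, 822, 359 and 447 CPM (1.50 ± 0.15). Of 32 genes of mitosis and the spindle 19 were higher in heavy polysomes and 1 higher in monosomes (median 1.76). Top2a, the target of etoposide, had 3018, 6666, 2486 and 2164 CPM against 438, 880.3, 264 and 346 CPM (2.89 ± 0.16). Cenpf stood at 3.08 ± 0.28, on only 5, 14, 8 and 5 monosome counts in LUL15 to LUL18. The proteasome had a median of 1.14 with 17 of 32 higher in heavy polysomes, and the SR and hnRNP splicing proteins 1.29 with 16 of 31, of which Hnrnpu stood highest at 2.87 ± 0.14 and Srsf5 was higher in monosomes at -0.91 ± 0.16. Cholesterol synthesis had a median of 1.33 with 9 of 21 higher in heavy polysomes, among them Cyp51 (2.42 ± 0.15) and Dhcr7 (2.68 ± 0.21). In glycolysis 8 of 11 were higher in heavy polysomes (median 1.76), with Hk2 at 2.91 ± 0.39 on 3, 28, 64 and 52 monosome counts. Gpi1 was higher in monosomes at -1.08 ± 0.16.

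**Figure D4:**
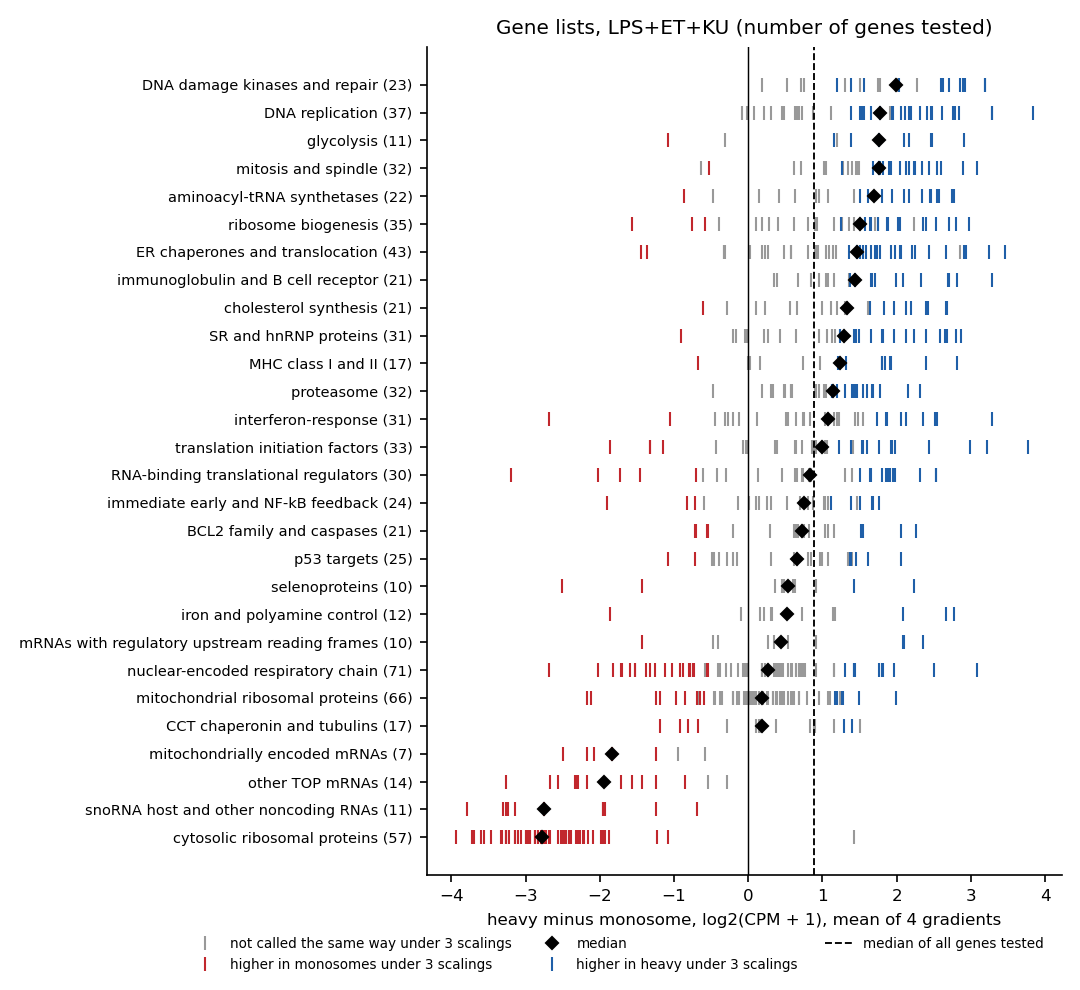
Heavy minus monosome difference (log2 of CPM + 1, mean of 4 gradients) of every tested gene in each list, coloured by whether it was called the same way under 3 scalings, with diamonds at list medians and a dashed line at the median of all genes (0.88). List medians run from -2.78 for ribosomal proteins to 1.99 for DNA damage kinases and repair.

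Mitochondrial proteins come from mRNAs of both genomes. The 7 mitochondrially encoded mRNAs tested, which mitochondrial ribosomes translate, had a median of -1.84, and 5 were higher in monosomes. Gradient LUL16 stood apart for them. mt-Nd1 had 25553, 2625, 47646 and 40554 CPM in the monosomes of LUL15 to LUL18, and 8051, 1585, 5528 and 4513 CPM in heavy polysomes (-2.17 ± 0.35). The monosome value of LUL16 was far below the others, and without that gradient the list median was -2.30. mt-Co1 (-2.50 ± 0.27), mt-Nd5 (-2.08 ± 0.24), mt-Nd4 (-1.84 ± 0.31) and mt-Cytb (-1.25 ± 0.28) were also higher in monosomes, and mt-Nd2 (-0.95 ± 0.36) and mt-Nd6 (-0.58 ± 0.35) were not called on the CPM scale but were called towards monosomes with TMM factors (-1.81 and -1.47) and edgeR (-2.71 and -2.09). Nuclear-encoded respiratory chain genes had a median of 0.26 over 71 genes, which became -0.28 with TMM factors, with 11 higher in heavy polysomes and 22 higher in monosomes. Sdha, the large flavoprotein of complex II, had 278, 487, 242 and 227 CPM against 31.5, 54.6, 25.8 and 29.3 CPM (3.08 ± 0.15). Cox7a2l, a short assembly factor, had 149.6, 136, 181 and 139 CPM against 957, 829.9, 1106 and 1019.6 CPM (-2.68 ± 0.15). Neither overlapped between the classes. The mitochondrial ribosomal proteins had a median of 0.19 over 66 genes, -0.40 with TMM factors, with 6 higher in heavy polysomes and 9 higher in monosomes, far from the cytosolic ribosomal proteins at -2.78.

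Several mRNAs with known translational control were followed as small lists. Among 12 iron and polyamine genes (median 0.52), Tfrc, the transferrin receptor, had 1054, 481, 731 and 725 CPM in heavy polysomes against 117, 113, 103 and 88.1 CPM (2.77 ± 0.18), and Fth1, the ferritin heavy chain that iron regulatory proteins repress, had 663, 1412, 522 and 516 CPM against 2807, 2224, 2834 and 2456 CPM (-1.86 ± 0.25). These lay on opposite sides in every gradient. Of 10 mRNAs with regulatory upstream reading frames (median 0.44, -0.23 with TMM factors), 3 were higher in heavy polysomes, Ibtk (2.36 ± 0.16), Eprs (2.10 ± 0.16) and Azin1 (2.09 ± 0.16), and Ddit3, the stress factor CHOP, was higher in monosomes at -1.43 ± 0.17. Atf4, the main factor of the integrated stress response, had 856, 1579, 1199 and 753 CPM against 1379.9, 1816, 1509.8 and 1225 CPM. It was not called (-0.48 ± 0.16, adjusted p = 0.0164), and its highest mean level, 2690.2 CPM, lay between the classes in fraction 10. It was called towards monosomes with TMM factors (-1.12) and edgeR (-1.17). Ppp1r15a, a phosphatase subunit of the same response (-0.41 ± 0.15), Atf5 (0.27 ± 0.19) and Ppp1r15b (0.35 ± 0.16) were not called either, and the last 2 turned to -0.35 and -0.37 with TMM factors. Ppp1r15a was called towards monosomes with TMM factors (-1.11) and edgeR (-1.10). Slc35a4 (0.91 ± 0.18) and Cebpb (0.53 ± 0.15) were called on the CPM scale only, and Cebpb turned to -0.11 with TMM factors. Of 10 selenoproteins, Txnrd1 was at 2.23 ± 0.17 and the short Sepw1 at -2.51 ± 0.17.

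RNA-binding regulators of translation and decay had a median of 0.83 over 30 genes, with 12 higher in heavy polysomes and 5 higher in monosomes. Ybx1, a cold-shock protein that packages mRNA, had 41.8, 21.7, 53.8 and 14.9 CPM in heavy polysomes and 208, 147, 654 and 298 CPM in monosomes (-3.20 ± 0.25). Zfp36, which destabilises AU-rich mRNAs, had 267, 182, 371 and 238 CPM against 829, 440.3, 971 and 706 CPM (-1.46 ± 0.15). The granule protein G3bp2 lay on the other side at 2.53 ± 0.19. Tia1, the RNA-binding protein at the centre of the study, had 24.7, 8.34, 22.4 and 26.6 CPM against 24.1, 25.6, 25.8 and 26.7 CPM and was not called (-0.42 ± 0.24, adjusted p = 0.129). Its values in the classes were alike except in LUL16. With TMM factors (-1.05) and edgeR (-1.07) it was called towards monosomes. Its relative Tial1 was called on the CPM scale (0.63 ± 0.19, adjusted p = 0.00945) but not under the others, where its difference was -0.04 with TMM factors and -0.01 with edgeR.

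Signalling and stress-response genes lay on both sides of the median gene. Over all genes tested, 30.4% were higher in heavy polysomes and 11.6% higher in monosomes. Of 24 immediate early and NF-kB feedback genes (median 0.75), 6 were higher in heavy polysomes, led by Nfkb1 (1.76 ± 0.17), and 3 higher in monosomes, of which Nfkbid had 85.3, 186, 46.0 and 75.6 CPM against 338, 354, 267 and 362 CPM (-1.91 ± 0.22). Nfkbia, the main inhibitor of NF-kB, was not called at 0.14 ± 0.17, turned to -0.47 with TMM factors and was called towards monosomes with edgeR at -0.52. Of 31 interferon-response genes (median 1.07), 9 were higher in heavy polysomes and 2 higher in monosomes. Parp14 had 128, 148, 97.3 and 106 CPM against 12.4, 7.21, 11.0 and 15.7 CPM (3.29 ± 0.22), and Irf7, the interferon regulatory factor, had 82.4, 23.5, 51.7 and 46.6 CPM against 464, 173, 283 and 385 CPM (-2.69 ± 0.16). These members of the same response lay at opposite ends without overlap. Of 21 genes of the BCL2 family and caspases (median 0.72), 4 were higher in heavy polysomes and 4 higher in monosomes, with the pore former Bax at -0.72 ± 0.19. Pmaip1, also called Noxa, was not called at -0.20 ± 0.17 and turned to 0.08 with CPM of summed counts, while TMM factors (-0.95) and edgeR (-0.65) called it towards monosomes.

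The mRNA of p53, the transcription factor of the DNA damage response, was higher in heavy polysomes. Trp53 had 575, 639, 379 and 578 CPM in the heavy polysomes of LUL15 to LUL18 and 79.7, 114, 93.8 and 100.2 CPM in the monosomes, a difference of 2.46 ± 0.16 (adjusted p = 3.0e-08), with counts in the 3′ untranslated exon at chr11:69591828. The classes did not overlap, and its mean level peaked in fraction 13 at 992 CPM. Its target Cdkn1a, the p21 inhibitor of the cell cycle, had 820.1, 463, 901 and 1016 CPM against 383, 213, 283 and 319 CPM (1.39 ± 0.16), without overlap, and peaked in fraction 11. Among 25 p53 targets tested the median was 0.66, which became -0.10 with edgeR. Of these, 5 were higher in heavy polysomes, led by the apoptosome scaffold Apaf1 (2.06 ± 0.21), and 2 higher in monosomes. Over all genes these shares were 30.4% and 11.6%. Rps27l was the lowest target at -1.08 ± 0.17. Gadd45a, another target, was under the limit for testing, with 7.97 ± 3.20 CPM in heavy polysomes and 5.08 ± 2.49 CPM in monosomes (SD, n = 4). Of the other mRNAs that the study follows, Hif1a had 546, 389, 375 and 376 CPM against 151, 59.3, 118 and 81.1 CPM (2.10 ± 0.18), the class I molecule H2-K1 4383, 5924, 3552 and 4234 CPM against 1161, 2312, 767 and 942 CPM (1.91 ± 0.19) and cyclin D2, Ccnd2, 399, 290.1, 546 and 489 CPM against 96.2, 77.5, 131 and 101 CPM (2.06 ± 0.14). All of these were higher in heavy polysomes without overlap.

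Chaperonin and tubulin genes, which fold and build microtubules, had a median of 0.19 over 17 genes, -0.42 with TMM factors, with 2 higher in heavy polysomes and 4 higher in monosomes. Tubb5, the main beta tubulin here (chr17:35834804), had 2361, 5038, 1056 and 1614 CPM in heavy polysomes and 4437, 11496, 2938 and 3708 CPM in monosomes (-1.19 ± 0.18). Monosomes exceeded heavy polysomes in every gradient, although the ranges overlapped because LUL16 was high in both classes. Cct3 stood highest at 1.50 ± 0.15 and was not called under every scaling. Without LUL16 the list median was 0.42.

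Noncoding RNAs lay with the monosomes. Of 54 lincRNAs 35 were higher in monosomes and 1 higher in heavy polysomes, with a median of -1.45, and of 191 pseudogenes 117 and 18 (median -1.09), against a median of 0.91 over 7061 coding genes. All 11 tested snoRNA host and other noncoding RNAs of 27 listed were higher in monosomes (median -2.75). Gas5, a snoRNA host that also starts with a TOP tract, had 475, 300.2, 529 and 300.3 CPM in heavy polysomes and 3591, 2272, 4589.5 and 3661 CPM in monosomes (-3.14 ± 0.17). Neat1, the nuclear paraspeckle RNA, had 3.40, 24.3, 6.66 and 5.10 CPM against 70.8, 419, 93.7 and 66.6 CPM (-3.79 ± 0.17). Both were lower in heavy polysomes in 4 of 4 gradients. The lowest difference of all genes, -4.02 ± 0.18, belonged to A430104N18Rik, a gene named Mir142hg in the annotation used here, and the entry named mmu-let-7d, which carries the identifier of the long noncoding gene 6720427I07Rik and does not measure a mature miRNA, stood at -3.80 ± 0.23. 4933439C10Rik, a processed transcript, stood at -3.63 ± 0.27. Among long noncoding genes with a mean of at least 20 CPM, the highest values were those of AL831764.1 (2.12 ± 0.20) and 1700040N02Rik (1.52 ± 0.15), both counted at a site within an intron of the annotated gene. Gm20645 (1.45 ± 0.17) and Gm15832 (1.10 ± 0.23) were called on the CPM scale only, and their counted sites lie at the coding genes Rel and Rnf149, so reads of those genes cannot be told apart from theirs.

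The same contrast in the other treatments, with their own 4 gradients, called 4210 of 7208 genes in LPS cells (58.4%, 3498 higher in heavy polysomes and 712 higher in monosomes on the CPM scale) and 3871 of 7350 in LPS+ET cells (52.7%, 3247 and 624). The median gene stood at 0.83 and 0.79. Across genes, Pearson's r of the LPS+ET+KU difference with that of LPS cells was 0.860 over 6757 genes and with that of LPS+ET cells 0.942 over 7015 genes, given as a description since the genes share libraries. The order of genes from monosome to heavy was much alike in the 3 treatments. The ribosomal protein list had gradient medians of -2.73 ± 0.24 with the inhibitor, -2.65 ± 0.30 with etoposide alone and -2.49 ± 0.07 in LPS cells (mean ± SD of 4 gradients), which overlapped.

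Whether ATM inhibition went with a different heavy to monosome difference was tested on the 12 within-gradient differences. Against LPS+ET cells, which differ in the inhibitor, 0 of 7384 genes were called (0%) by limma, with 535 at an unadjusted p under 0.05 and a lowest adjusted p of 0.252, and edgeR called 3. These were Def6 (-1.30), Tuba1c (-1.32) and Gm11826 (2.76), all on edgeR's log2 scale. Against LPS cells, which differ in both etoposide and the inhibitor, 21 of 7384 genes (0.284%) were called, 7 higher (0.0948%) and 14 lower (0.190%) in LPS+ET+KU, with 1605 at an unadjusted p under 0.05. These 21 include 8 pseudogenes. None overlapped between the 4 gradients of each treatment, which their selection on these same values makes likely. Of all genes, 7.68% lay wholly above and 8.44% wholly below LPS. Against LPS+ET cells, 3.68% of all genes lay wholly above and 1.79% wholly below. The 21 genes lay close to the threshold, with adjusted p of 0.00751 to 0.00955 by limma and at most 0.0356 when a gradient was left out. The count fell whichever gradient was left out. It was 0 without LUL15 or LUL18 of the LPS cells and without LUL15, LUL17 or LUL18 of the LPS+ET+KU cells, and it was 5 without LUL16 and 10 without LUL17 of the LPS cells and 2 without LUL16 of the LPS+ET+KU cells. Since LPS+ET+KU cells differ from LPS cells in both agents, a part for the inhibitor in these 21 genes cannot be told apart from that of etoposide. P2rx7 and Actg-ps1 had a mean under 10 CPM in LPS cells and were tested through their levels in the other treatments.

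**Figure D5:**
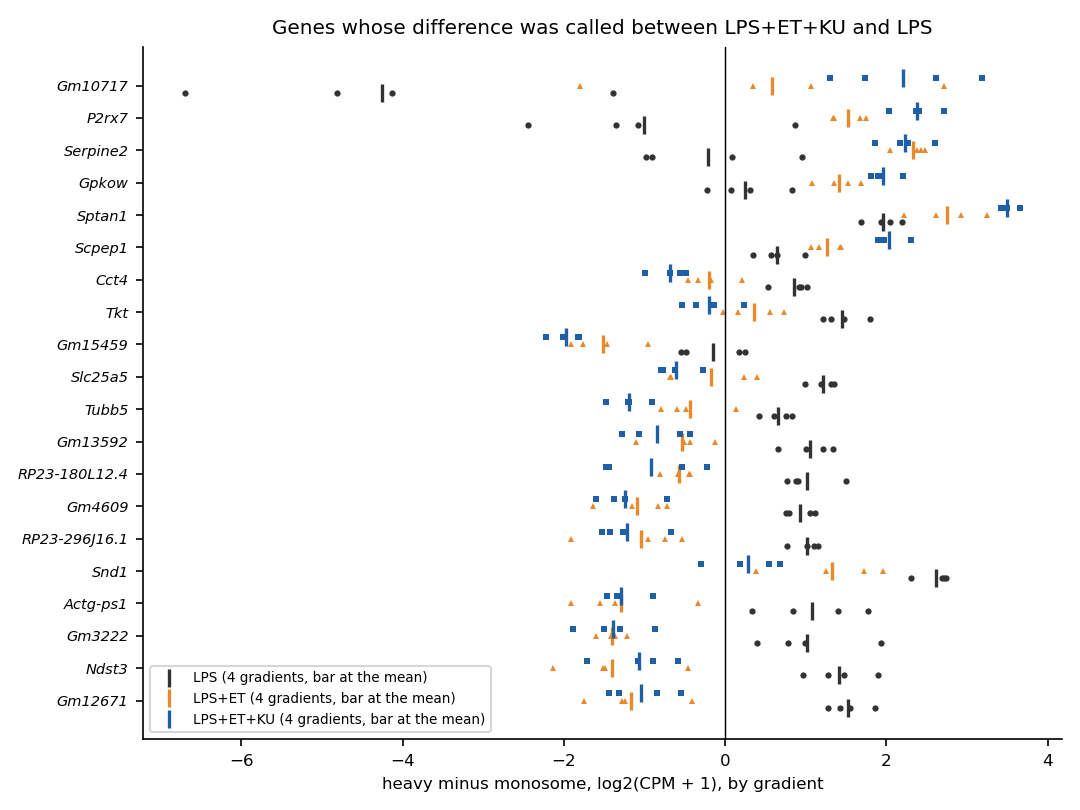
Heavy minus monosome difference (log2 of CPM + 1) in each of 4 gradients per treatment, with a bar at the mean, for 20 of the 21 genes called between LPS+ET+KU and LPS. The LPS+ET+KU points lie wholly above or below the LPS points in every gene shown, which selection on these same values makes likely. The LPS+ET points are given beside them.

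Among the genes lower in LPS+ET+KU, Snd1, a nuclease of RNA granules, had a difference of 2.61 ± 0.20 (SD, n = 4) in LPS cells, 1.33 ± 0.69 after etoposide and 0.28 ± 0.44 when the inhibitor was added, which is -2.33 ± 0.33 (SE) relative to LPS (adjusted p = 0.00751 by limma). Its heavy polysome level was 1969, 2224, 1800.0 and 1813 CPM in LPS cells and 687, 857, 588 and 461 CPM in LPS+ET+KU cells, while its monosome level was 305, 340.0, 268 and 365 CPM and 428, 1055, 401 and 406 CPM. It was lower in heavy polysomes and higher in monosomes than in LPS cells, with no overlap in either class. Its counts lay in an untranslated exon, 46342 bases from the annotated end of the gene. Gm12671 (-2.56), Ndst3 (-2.47), Gm3222 (-2.41) and Actg-ps1 (-2.38) were the other named genes on this side, of which all but Ndst3 are pseudogenes and Ndst3 was counted in an intron, 102669 bases from the end of the gene. Chosen after their values were seen, Tubb5 (-1.85) and Cct4 (-1.53) were the called members of the chaperonin and tubulin list. Tubb5 differed by 0.66 ± 0.18 in LPS cells, -0.43 ± 0.40 with etoposide and -1.19 ± 0.23 with etoposide and the inhibitor. That list had gradient medians of 1.11 ± 0.17 in LPS cells, 0.78 ± 0.20 after etoposide and 0.33 ± 0.22 after etoposide with the inhibitor, the last below the others without overlap. Of its 17 genes, 10 were lower than in LPS at an unadjusted p under 0.05, as were 10.5% of all genes, and 5 lower than in LPS+ET, as were 2.34% of all genes, none of these 5 past the adjusted threshold.

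Among the genes higher in LPS+ET+KU, Serpine2, a protease inhibitor, had differences of -0.21 ± 0.92 in LPS cells, 2.33 ± 0.20 after etoposide and 2.23 ± 0.31 after etoposide with the inhibitor (2.44 ± 0.37 higher than in LPS, adjusted p = 0.00806). Its heavy level went from 11.2, 12.6, 19.2 and 11.6 CPM in LPS cells to 122, 183, 178 and 157 CPM, and its monosome level from 21.9, 11.8, 9.43 and 23.8 CPM to 32.8, 29.3, 38.8 and 31.7 CPM. Both classes lay above those of LPS cells without overlap, the heavy one further. P2rx7, an ATP-gated channel, was 3.38 ± 0.50 higher, on 1 to 10 monosome counts a gradient in LPS cells. Gpkow was 1.71 ± 0.25 higher. Without libraries under 100000 counts the differences were smaller, 1.82 for Serpine2, 2.54 for P2rx7 and 1.11 for Gpkow, and all 3 were still called by limma. With all libraries, edgeR did not call Gpkow (0.92, adjusted p = 0.0158). Gm10717 had the largest difference, 6.47 ± 1.02, but on 13 to 41 monosome counts a gradient in LPS cells, where 3 of the 4 gradients hold a fraction 4 library of under 100000 counts. Without such libraries it fell under the 10 CPM limit and Sptan1, named for this loss, was no longer called (0.90, adjusted p = 0.0999 by limma), while the other 19 of the 21 genes were.

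Of the mRNAs the study follows, none was called between treatments. Trp53 had differences of 1.53 ± 0.20 in LPS cells, 2.66 ± 0.45 after etoposide and 2.46 ± 0.34 after etoposide with the inhibitor (SD, n = 4). By limma this was 0.93 relative to LPS (adjusted p = 0.0678) and -0.20 relative to LPS+ET (adjusted p = 0.905). Cdkn1a had -0.65 ± 1.14, 0.84 ± 0.39 and 1.39 ± 0.32 (2.04 above LPS, adjusted p = 0.0303). Hif1a had 1.43 ± 0.26, 1.33 ± 0.16 and 2.10 ± 0.45 (0.77 above LPS+ET, adjusted p = 0.483). Gradient medians of the p53 targets were -0.22 ± 0.36, 0.35 ± 0.36 and 0.73 ± 0.15, the last above both others without overlap. Of the 24 targets tested between treatments, 9 were higher than in LPS at an unadjusted p under 0.05, as were 11.3% of all genes, and 2 higher than in LPS+ET, as were 4.90% of all genes. Mitochondrially encoded mRNAs stood at -3.29 ± 0.38 in LPS cells, -2.20 ± 0.98 after etoposide and -1.80 ± 0.99 after etoposide with the inhibitor. The other TOP mRNAs stood at -1.30 ± 0.13, -1.79 ± 0.30 and -1.93 ± 0.35. Both lists lay apart from LPS cells without overlap. So did initiation factors, aminoacyl-tRNA synthetases, proteasome, SR and hnRNP proteins and glycolysis, which lay lower. The p53 and chaperonin lists were thus not alone. The immediate early and NF-kB list lay above LPS+ET without overlap, at 0.63 ± 0.16 against 0.26 ± 0.09. Of its 24 genes, 6 were higher than in LPS+ET at an unadjusted p under 0.05, against 4.90% of all genes.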

How the data were processed

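Polysome fractions of B cells were sequenced from the 3′ ends of their mRNAs. Per the labels, the authors added random bases as molecular identifiers, removed PCR duplicates, aligned with TopHat2 2.0.12 to GRCm38 (mm10) and counted reads per gene with HTSeq, and DESeq2 1.6.3 is listed among their tools. The deposited table holds whole-number counts per gene and library, not normalized. Of its columns 79 match a single sample and 78 (pools LUL16 and LUL18) match a treatment, pool and fraction but not which sample's replicate number, so gradients are named by pool. A column with each gene's main read position served only to place the counted sites.

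Each library was scaled to CPM over all genes, and fractions were averaged with equal weight within class and gradient. log2(CPM + 1) was fitted with limma 3.58.1 (R 4.3.3, eBayes with trend, two-sided) with the gradient as a block, since both classes come from the same tube, over genes with a mean of at least 10 CPM. A gene was called at an adjusted p (Benjamini-Hochberg, all genes tested) under 0.01, as in the study. limma rather than a count model was the main test because the comparison averages scaled fractions. edgeR 4.0.16 (quasi-likelihood) and DESeq2 1.42.0 on counts summed per class, TMM factors, pseudocounts of 0.25 and 4, filters of 1 and 50 CPM, narrower classes, CPM of summed counts, no block, no shallow libraries and leaving out each gradient were alternatives, and a zero at the median gene was added after seeing the data. Genes without an adjusted p in DESeq2 stayed without one. Between treatments, the differences of all 12 gradients were fitted with treatment as the only term. Intervals between replicates cover these samples only. Fits were tested on simulated data.

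Members and gene lists were chosen with earlier results of these data known. Genes named are those the study follows, the 8 coding genes with the largest difference in each direction (at least 20 CPM, same sign in 4 gradients), the highest, lowest and most abundant tested member of each of 28 lists (all members of lists of up to 13), the 4 long noncoding genes with the largest difference in each direction, and up to 5 called, non-overlapping genes in each direction between treatments. Coding lengths and sites come from GENCODE M21 (GRCm38) and start windows from RefSeq. Some genes that met these rules are not reported here. Of the 125 named genes 83 are counted in an untranslated exon, 9 in a coding exon, 8 in a noncoding exon, 4 in an intron and 21 outside, mostly within a few bases of the annotated end.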

Additional observations from a re-analysis of the deposited data

Results flagged for a closer look

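Among 154 sets of 4 gradient values that were examined for a value far from the other 3, 7 had one by Dixon's 95% criterion, where chance gives about 1 in 20. Gradient LUL16 held 5 of them: the difference was -1.51 for Tia1, 1.67 for Azin1, 4.11 for Hspa5 and 0.08 for Mvd, and the median of the MHC class I and II list was 1.08. Ppp1r15b stood apart in LUL15 at 0.75 and Gm20645 in LUL18 at 0.90. Mvd, an enzyme of cholesterol synthesis, was higher in monosomes (-0.61 ± 0.18, SE) over all 4 gradients.

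The genes named for a different heavy to monosome difference in LPS+ET+KU and LPS cells stand here because the difference between treatments was itself called by limma. They were Gm10717 (6.47), P2rx7 (3.38), Serpine2 (2.44) and Gpkow (1.71), higher in LPS+ET+KU, and Gm12671 (-2.56), Ndst3 (-2.47), Gm3222 (-2.41), Actg-ps1 (-2.38) and Snd1 (-2.33), lower. Of the 21 genes called in all, 19 were also called by edgeR's quasi-likelihood test with Benjamini-Hochberg adjustment and 20 with TMM factors, and each was lost in at least 5 of the 8 fits that left out a gradient.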

How the results depend on the processing

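The 5208 genes called between heavy polysomes and monosomes became 2188 with a filter of 50 CPM, which tests 2778 genes. Without the pairing of heavy and monosome values by gradient (no replicate block) they were 3796, and without each gradient in turn 4495 to 5234. TMM gave 4412 (2734 higher in heavy polysomes), edgeR 5763 (2814), DESeq2 5228 (2688) and a zero at the median gene, chosen after seeing the data, 4001 (1910). Against LPS the 21 calls became 112 with CPM of summed counts, 224 with TMM factors (14 higher, 6.25% of calls against 33.3%), 268 with edgeR, 158 with a filter of 50 CPM, 60 with a pseudocount of 4, 82 without libraries under 100000 counts and 0 to 10 without a gradient. Against LPS+ET the 0 calls became 1 with CPM of summed counts and 3 with edgeR, and were 0 without any single gradient. The pool as a replicate block gave 29 and 0. Gradients of the same pool in different treatments correlated at -0.0648 to 0.482 in their deviations (median 0.194), over 0.1 in 8 of 12 pairs. Gradients of different pools had a median of -0.0592 and were over 0.1 in 9 of 36 pairs. The main fit did not take the tag as a pairing, although these values leave a shared part within pools possible.

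Of 124 named genes tested, 110 kept their direction under every alternative run for them, and of 1831 values under alternatives 1670 kept direction and side of the threshold, 73 were no longer past it and 54 newly past it. Leaving out a gradient took the call from 8 genes: Cebpb with any gradient (0.45 to 0.62), Tial1 (0.51 to 0.58), H2-Oa (-0.69 to -0.56) and Mvd (-0.56 to -0.51) without LUL15, LUL17 or LUL18, Ftx (-0.70 to -0.55) without LUL15, LUL16 or LUL18, Cox6c (-0.91) and Bax (-0.74) without LUL15 and Ifit1 (0.61) without LUL18. Directions turned, mostly towards monosomes as the zero moved, in the following, and the cause of the others was not tested. With TMM factors these were Atf5 -0.35, Blnk -0.28, Cebpb -0.11, H2-Eb1 -0.51, Ifit1 -0.02, Nfkbia -0.47, Ppp1r15b -0.37, Snd1 -0.34, Tdp1 -0.44 and Tial1 -0.04. With edgeR they were Atf5 -0.41, Blnk -0.10, H2-Eb1 -0.48, Ifit1 -0.16, Nfkbia -0.52, Ppp1r15b -0.39, Snd1 -0.80, Tdp1 -0.55 and Tial1 -0.01. With DESeq2 they were Atf5 -0.35, Blnk -0.05, H2-Eb1 -0.42, Ifit1 -0.11, Nfkbia -0.46, Ppp1r15b -0.33, Snd1 -0.74 and Tdp1 -0.50. With CPM of summed counts Mrpl45 was 0.10, Pmaip1 0.08, Pole4 0.00 and Snd1 -0.07, with narrower classes Eif4b was 0.38 and Pole4 0.05, and without LUL16 Pole4 was 0.14.

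Of 30 list medians 21 never changed sign. The others became, with TMM, edgeR and DESeq2 in this order, -0.28, -0.27 and -0.21 for the respiratory chain, -0.40, -0.32 and -0.26 for mitochondrial ribosomal proteins, -0.23, -0.15 and -0.09 for upstream reading frames, -0.01, -0.08 and -0.02 for selenoproteins and -0.42, -0.54 and -0.48 for chaperonin and tubulins. With edgeR and DESeq2 they became -0.10 and -0.05 for p53 targets and -0.08 and -0.03 for immediate early genes, with TMM -0.04 for iron and polyamine genes and with edgeR -0.04 for RNA-binding regulators. A filter of 50 CPM gave -0.02 for mitochondrial ribosomal proteins and -1.43 for selenoproteins, and narrower classes -0.05 for the respiratory chain. Libraries under 100000 counts, where a gene at 10 CPM has under 1 count, were 1 heavy library in LPS+ET+KU, 3 monosome and 1 heavy in LPS and 2 monosome and 5 heavy in LPS+ET. Among these 5 heavy libraries were fractions 11, 12, 15 and 16 of gradient LUL16.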

Other observations

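The monosome and heavy values within a class correlated across genes at 0.848 to 0.961 between gradients, the classes of the same gradient at 0.715 to 0.752, and the differences of separate gradients at 0.828 to 0.933. Some members of the lists were named by their level and are given here as values. Psmb8, the immunoproteasome subunit, was at 0.91 ± 0.15 (SE) and Hnrnpc at 1.06 ± 0.16, both called on the CPM scale only. Psmd1, a proteasome subunit counted in a coding exon far from the gene end, was higher in heavy polysomes at 2.31 ± 0.16, and Psmb1 was not called at -0.48 ± 0.15. Pkm, the glycolytic pyruvate kinase, was at 1.19 ± 0.16 and was called on the CPM scale only, and Cox6c was higher in monosomes at -0.88 ± 0.22. Mrpl3 was higher in heavy polysomes at 1.99 ± 0.17 and Mrpl52 higher in monosomes at -2.18 ± 0.18, and Mrpl45 was not called at -0.13 ± 0.14. Ube2c, which drives exit from mitosis, was not called at -0.64 ± 0.26, nor was Pole4 at -0.09 ± 0.20. With TMM factors and edgeR, Psmb1 (-1.22 and -1.06), Mrpl45 (-0.81 and -0.63), Ube2c (-1.42 and -1.36) and Pole4 (-0.63 and -0.73) were called towards monosomes. Ftx, a noncoding RNA of the X inactivation centre, was higher in monosomes at -0.69 ± 0.20. Ifit1 was at 0.64 ± 0.15, called on the CPM scale only and -0.02 with TMM factors.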
